A study of Canis lupus familiaris with 8 samples.

Results

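CD4 single-positive (sp) and CD8A sp T cells of canine blood were chosen by their CD4 and CD8A counts and compared in sums of unique molecular identifiers (UMIs) per dog. A cell was counted as CD4 sp when it held at least 1 CD4 UMI and 0 CD8A UMIs, and as CD8A sp when it held at least 1 CD8A UMI and 0 CD4 UMIs. Of 31909 cells that passed the limits of 500 to 20000 UMIs and at most 10% mitochondrial UMIs, 19674 were sp, 13247 of them CD4 sp (41.5% of the 31909) and 6427 CD8A sp (20.1%). Both genes were at 0 in 11510 cells (double-negative, dn, 36.1%) and both were detected in 725 cells (double-positive, dp, 2.27%).

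The study sorted viable TCRαβ+ lymphocytes by antibody from the blood of 4 healthy Beagles, froze them, thawed the 4 samples together and ran them as 5′ single-cell RNA libraries with a matching V(D)J library per dog. All had been given routine vaccinations, and the study states no other treatment. The animals were a 5-year-old female (dog 1), a pair of 7-year-old males (dogs 2 and 3) and a 9-year-old male (dog 4). Age and sex cannot be told apart from the individual here. Both sides of the comparison came from the same library of the same dog, so each dog was a pair and n = 4 pairs throughout.

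CD4 and CD8 are coreceptors that bind MHC class II and MHC class I molecules, respectively, beside the T cell receptor (TCR). In the thymus the transcription factor encoded by ZBTB7B (ThPOK) directs cells to the CD4 helper fate and RUNX3 to the CD8 cytotoxic fate. Helper cells act mainly through CD40 ligand and cytokines, and cytotoxic cells through granzymes, perforin and Fas ligand.

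Dogs 1 to 4 contributed 3658, 3629, 2716 and 3244 CD4 sp cells and 691, 1427, 2280 and 2029 CD8A sp cells. The CD8A sp sum of dog 1 was therefore the shallowest, at 2828190 UMIs, and the other 7 sums held 6120951 to 15530823 UMIs. Median UMIs per cell were 3747 to 4092 in CD4 sp cells and 3586 to 3932 in CD8A sp cells, lower on the CD8A sp side in 3 of 4 dogs (exact sign-flip permutation test, two-sided, p = 0.375). Mitochondrial UMIs made up 2.10% ± 0.38 (SD, n = 4) of the CD4 sp sums and 2.34% ± 0.17 of the CD8A sp sums, and were higher on the CD8A sp side in 4 of 4 dogs (p = 0.13 by the same exact test, the smallest p that 4 pairs allow, and adjusted p = 0.219 over 7 comparisons). The gene list deposited for dog 1 had 27980 lines for a matrix of 20257 rows, so the list of dog 2 was used for its rows. With that list, the log row totals of dog 1 and of each other dog had r of 0.989 to 0.991 across genes, which are not independent replicates. Between 87 and 120 cell barcodes occurred in both libraries of a pair of dogs.

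Because receptor sequences were read in the same cells, the largest TRB clonotype of each side in each dog can be shown. A clonotype is 1 combination of TRBV gene, TRBJ gene and junction sequence in cells with exactly 1 productive TRB. The junctions are printed 5′ to 3′ as deposited, with the stretch between the 2 conserved anchor codons in capitals.
dog 1 CD4 sp, TRBV25 and TRBJ2-1: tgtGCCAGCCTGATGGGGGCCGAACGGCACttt
dog 2 CD4 sp, TRBV3-2 and TRBJ2-5: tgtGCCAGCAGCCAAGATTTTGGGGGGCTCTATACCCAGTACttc
dog 3 CD4 sp, TRBV15 and TRBJ1-2: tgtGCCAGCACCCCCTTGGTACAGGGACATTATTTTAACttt
dog 4 CD4 sp, TRBV16 and TRBJ2-1: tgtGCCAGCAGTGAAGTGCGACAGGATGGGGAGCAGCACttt
dog 1 CD8A sp, TRBV25 and TRBJ2-1: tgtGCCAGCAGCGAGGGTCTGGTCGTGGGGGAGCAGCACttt
dog 2 CD8A sp, TRBV25 and TRBJ2-5: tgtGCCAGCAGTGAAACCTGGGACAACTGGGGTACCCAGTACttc
dog 3 CD8A sp, TRBV5-2 and TRBJ1-2: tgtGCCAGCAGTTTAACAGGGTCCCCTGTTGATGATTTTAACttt
dog 4 CD8A sp, TRBV3-1 and TRBJ2-1: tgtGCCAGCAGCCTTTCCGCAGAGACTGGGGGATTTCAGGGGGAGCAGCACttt

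These clonotypes lay almost wholly on 1 side. The 4 largest CD4 sp clonotypes held 4, 40, 56 and 71 CD4 sp cells in dogs 1 to 4, with 0, 0, 2 and 1 CD8A sp cells of the same receptor. The 4 largest CD8A sp clonotypes held 39, 60, 146 and 119 CD8A sp cells and 0 CD4 sp cells each. Cells without a UMI of either coreceptor carried the same receptors more often in the CD4 sp clonotypes, with 0, 13, 27 and 11 dn cells, than in the CD8A sp clonotypes, with 1, 1, 1 and 9 dn cells, in 3 of 4 dogs. The largest CD8A sp clonotypes of dogs 1 and 2 both used TRBV25 with TRAV9-11, which was joined to TRAJ28 in dog 1 but to TRAJ40 in dog 2.

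Over all TRB clonotypes with at least 2 sp cells (99, 291, 254 and 387 in dogs 1 to 4), 4.04%, 6.19%, 9.45% and 3.36% had cells on both sides. As a mean over clonotypes, 96.4% ± 1.28 (SD, n = 4) of the cell pairs within a clonotype lay on 1 side. The side shares of all sp cells with 1 TRB, including cells without a clone mate, would give 58.0% ± 9.52. The clonotype mean was above that level in 4 of 4 dogs, but the level is not matched to expanded clonotypes. Of the dn cells with an sp clone mate, 85.2%, 67.8%, 41.8% and 85.6% had mates mostly on the CD4 sp side in dogs 1 to 4. For comparison, CD4 sp cells made up 82.6%, 70.5%, 52.8% and 60.3% of all sp cells with a TRB. The dn share was clearly above that level in dog 4 alone, but the level is not a matched base. It also counts sp cells without a clone mate, which were more frequent on the CD4 sp side. Clonotypes of 2 or more cells held a mean of 26.6% on the CD4 sp side but 65.8% on the CD8A sp side. Whether the dn share exceeded that of expanded sp cells was not tested. In dog 3 the larger group, 55.8%, had mates mostly on the CD8A sp side.

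Expression differed widely between the sides. Of 10118 genes tested without CD4 and CD8A, 2741 (27.1%) differed at an adjusted p below 0.05 in edgeR's quasi-likelihood test with the dog as a block and Benjamini-Hochberg adjustment. Of these, 1366 (13.5%) were higher in CD8A sp cells and 1375 (13.6%) higher in CD4 sp cells, and 2687 of the 2741 moved the same way in all 4 dogs, as did 45.7% of all tested genes. The count stood at 1427 in a fit without the dog block. The 4 sums of 1 side lay entirely above those of the other for 1913 genes (18.9%). Among called genes, differences over 4-fold were more frequent upward. A log2 fold change (CD8A sp minus CD4 sp) above 2 was found in 170 of them and one below -2 in 61. The median over all tested genes, called or not, was -0.0023. In these sums, more cells expressing a gene and more RNA per expressing cell cannot be told apart, and for selected genes the percentage of cells with any UMI accompanies the counts per 1000000 UMIs (CPM).

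The coreceptor genes chose the cells and are given as a description. CD4 stood at 529, 530, 542 and 523 CPM in the CD4 sp sums of dogs 1 to 4, and CD8A at 1352, 1317, 1594 and 1586 CPM in the CD8A sp sums. Each was at 0 on the other side by construction. CD8B, the partner chain of CD8A on most conventional cytotoxic cells, was not analysed here.

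The lineage factors differed in opposite directions. ZBTB7B was at 18.4, 19.3, 19.4 and 19.1 CPM in CD4 sp cells of dogs 1 to 4 and at 6.01, 9.48, 7.62 and 5.47 CPM in CD8A sp cells. The groups did not overlap, and the log2 fold change was -1.42 ± 0.14 (SE; edgeR adjusted p = 0.000191). RUNX3 was at 11.2, 12.4, 15.3 and 14.5 CPM in CD4 sp cells and at 29.7, 22.2, 25.9 and 28.3 CPM in CD8A sp cells, again without overlap (log2 0.96 ± 0.11 SE; edgeR adjusted p = 0.000429). ZBTB7B was sparse, with a UMI in 7.32% of CD4 sp cells against 2.77% on the CD8A sp side.

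Of the 25 transcription factors on the lineage list, 23 were tested. Of these, 7 were higher in CD8A sp cells, 11 higher in CD4 sp cells and 5 not called. For this and each later list, the share over all tested genes was 13.5% higher in CD8A sp and 13.6% higher in CD4 sp cells. EOMES, which programmes cytotoxic and memory function, was at 0.421 to 4.24 CPM in CD4 sp and 42.8 to 59.8 CPM in CD8A sp sums (log2 4.18). ZEB2, which the study lists among the transcripts of effector cells, was at 0.421 to 2.80 CPM against 33.9 to 80.4 CPM (log2 5.28). TBX21 (T-bet), the type 1 effector factor, was at 6.25 to 34.1 against 96.5 to 190 CPM (log2 2.92). IKZF3 (Aiolos) rose by a log2 of 1.36 and BCL6 by 1.34.

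Several factors were higher on the CD4 sp side. LEF1, with TCF7 the effector of Wnt signalling in early T cells, was at 664, 388, 349 and 216 CPM in CD4 sp cells of dogs 1 to 4 and at 204, 153, 126 and 78.6 CPM in CD8A sp cells. The dogs kept this order on both sides, and the log2 fold change was -1.50 ± 0.06 (SE). ID3, which restrains E proteins, was lower in CD8A sp cells (log2 -1.96), as were TCF7 (-0.76), GATA3 of type 2 helper cells (-0.71), RUNX1 (-0.79), MAF (-1.14) and BCL11B (-0.43). TOX, which marks chronic stimulation, was at 75.1 to 82.5 and 70.4 to 130 CPM and was not called (log2 0.31, edgeR adjusted p = 0.0808), but passed the threshold without dog 3 (0.0225) and had a log2 of -0.02202 with 1 cell per clonotype (0.895).

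**Figure D1:**
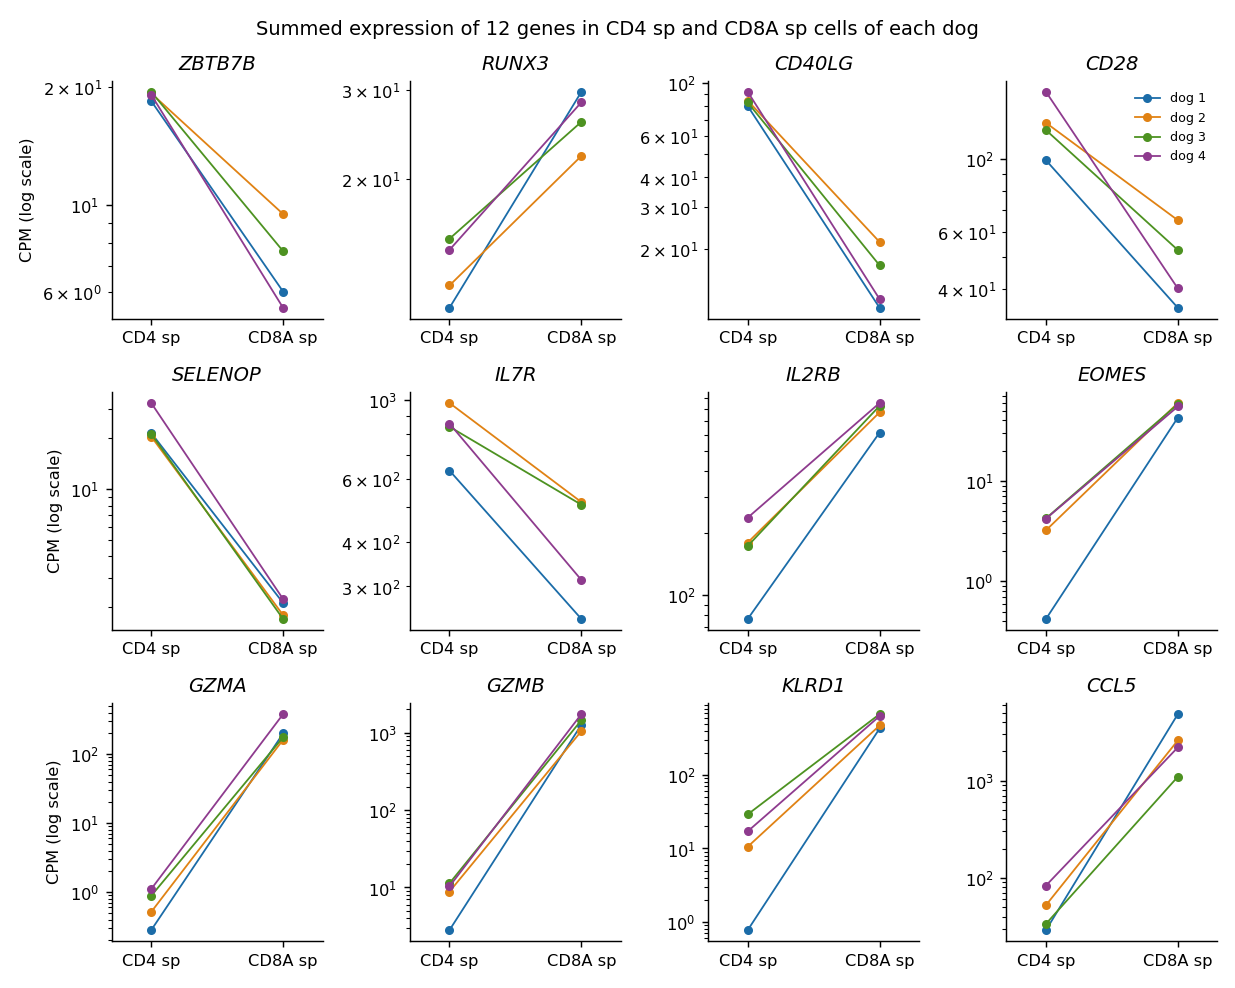
CPM (log axis) of 12 genes in the summed CD4 sp and CD8A sp cells of each dog, with 1 line per dog. The lines of ZBTB7B, CD40LG, CD28, SELENOP and IL7R fall and those of RUNX3, IL2RB, EOMES, GZMA, GZMB, KLRD1 and CCL5 rise in all 4 dogs.

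GZMA and GZMB were higher in CD8A sp cells. GZMA (granzyme A) was at 0.281, 0.515, 0.883 and 1.11 CPM in CD4 sp cells of dogs 1 to 4 and at 199, 161, 175 and 379 CPM in CD8A sp cells (log2 8.35 ± 0.13 SE; edgeR adjusted p = 1.8e-08). GZMB (granzyme B) was at 2.81, 8.82, 11.3 and 10.3 CPM against 1268, 1050, 1455 and 1741 CPM (log2 7.39 ± 0.24 SE; edgeR adjusted p = 9.56e-07). Both were at or above 161 CPM in every CD8A sp sum and at or below 11.3 CPM in every CD4 sp sum. A GZMB UMI was found in 59.6% ± 5.47 (SD, n = 4) of CD8A sp cells, in 2.35% ± 0.99 of CD4 sp cells and in 4.33% of dn cells. Most CD8A sp cells thus held one, and the CD4 sp share was below that of dn cells.

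Of 16 genes for granules and death ligands, 13 were tested, of which 8 were higher in CD8A sp cells, 3 higher in CD4 sp cells and 2 not called; the median log2 fold change was 1.95. PRF1 (perforin), the pore former, rose by a log2 of 3.73, CTSW (cathepsin W) by 4.66, FASLG (Fas ligand) by 3.75, GZMK by 2.93, CST7 (cystatin F, a protease inhibitor of granules) by 1.95 and RAB27A, which docks granules, by 0.38. The 3 genes that were higher in CD4 sp cells differed little: SRGN (serglycin, log2 -0.35), CTSC (cathepsin C, -0.71) and TNFSF10 (TRAIL, -0.21). TNFSF10 lost its call without dog 2 (edgeR adjusted p = 0.087) and without dog 3 (0.0574).

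Of 7 chemokine genes, 3 were tested and 3 were higher in CD8A sp cells. CCL5 was at 29, 52.4, 33.6 and 83.2 CPM in CD4 sp cells of dogs 1 to 4 and at 4817, 2588, 1095 and 2194 CPM in CD8A sp cells (log2 5.64 ± 0.41 SE). The CD8A sp sums thus varied over 4-fold among dogs, with dog 1 highest and dog 3 lowest. CCL4 was at 9.76 to 58.5 CPM against 647 to 1400 CPM (log2 5.17). CCL3 gave 1 UMI in all CD4 sp cells and 77 in CD8A sp cells, a ratio of 163 in pooled CPM (95% counting interval 28.4 to 6530).

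Receptors and adaptors known from natural killer (NK) cells were higher on the CD8A sp side. Of 17 genes, 13 were tested and 13 were higher in CD8A sp cells without overlap between the groups, with a median log2 fold change of 4.36. Over all tested genes, the groups did not overlap for 18.9%. KLRD1 (CD94) was at 0.773, 10.6, 29.1 and 17.1 CPM in CD4 sp and 431, 474, 676 and 637 CPM in CD8A sp cells of dogs 1 to 4 (log2 5.47 ± 0.42 SE; edgeR adjusted p = 5.83e-05). KLRK1 (NKG2D), an activating receptor for stress ligands, rose by a log2 of 3.18 and KLRB1 (CD161) by 5.85. In dog 1 the CD4 sp level of all 3 was the lowest of the 4 dogs.

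The adaptor FCER1G, which carries signals of Fc and NK receptors, was at 0.421 to 1.55 CPM in CD4 sp and 233 to 451 CPM in CD8A sp sums (log2 8.31), with a UMI in 0.352% of cells on the CD4 sp side and 23% on the CD8A sp side. CD160 (log2 6.81), NCR3 (NKp30, 6.31), SLAMF7 (4.36), CD244 (2B4, 3.62), CRTAM (2.52) and KLRG1 (2.11) rose as well. NCR1 (NKp46) gave 2 UMIs in CD4 sp and 416 in CD8A sp cells, a ratio of 441 (95% counting interval 121 to 3650). The smallest rises of the list were in HCST (DAP10, log2 0.75) and CD226 (DNAM-1, 0.51), which were also present in CD4 sp cells at 27.9 to 49.7 and 62.6 to 83.6 CPM.

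Of the 12 genes with the largest rise under the naming rule (a call, 1 direction in 4 dogs, a symbol and at least 20 CPM on the higher side), 7 have been described: GZMA, GZMB, CCL5, FCER1G, CD160, NCR3 and KLRB1. The rule leaves out T cell receptor V, D, J and C genes. RAB31, a small GTPase of vesicle traffic, had 2 UMIs in CD4 sp and 526 in CD8A sp cells, a ratio of 557 in pooled CPM (95% counting interval 154 to 4610). S1PR5, a sphingosine receptor of circulating NK and effector cells, was at 0.0644 to 0.176 CPM against 15.6 to 36.1 CPM (log2 7.63). ITGAM (CD11b), a complement receptor chain, was at 0.211 to 1.99 against 84.9 to 268 CPM (log2 7.40), and the signalling genes FGR, a Src family kinase, and PLCG2, a phospholipase, rose by a log2 of 6.36 and 6.13.

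The other 12 genes under the rule, those with the largest fall, were of more varied function. SELENOP, a selenium carrier, was at 21.5, 20.5, 21.2 and 32.4 CPM in CD4 sp cells of dogs 1 to 4 and at 2.12, 1.80, 1.71 and 2.24 CPM in CD8A sp cells (log2 -3.65 ± 0.13 SE; edgeR adjusted p = 1.01e-06). SAMHD1, which hydrolyses nucleotides, was at 40.7 to 71.9 against 4.24 to 15.4 CPM (log2 -2.55), and CD52, a small surface glycoprotein, at 201 to 283 against 34.8 to 75.4 CPM (log2 -2.24). CD52 was detected in 49.4% of CD4 sp cells against 11.1% on the CD8A sp side.

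ZC3H12D, a regulator of mRNA decay, was lower in CD8A sp cells (log2 -2.62), as were CDH1 (E-cadherin, -2.58), TIAM1 (a Rac exchange factor, -2.29), CCDC3 (-2.06), NR1D1 (REV-ERBα, a clock repressor, -2.04) and KIAA0930 (-2.0). The groups did not overlap for any of these 6 genes, against 18.9% of all tested genes. The naming rule favours genes without overlap, so this is a description only. CD40LG, TNFRSF18 and IL21R, described with their lists, complete the 12. Genes known only by an identifier made up 1000 of the tested genes, of which 241 were called. The identifiers ENSCAFG00000028587 (log2 8.21) and ENSCAFG00000013453 (log2 7.05) were also higher in CD8A sp cells, and the gene list gave them no symbol.

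Helper and costimulatory genes were mostly higher in CD4 sp cells. CD40LG (CD40 ligand), the helper signal to B cells and dendritic cells, was at 79.9, 84.2, 82.7 and 91.7 CPM in CD4 sp cells of dogs 1 to 4 and at 11.3, 21.4, 17.1 and 12.3 CPM in CD8A sp cells (log2 -2.44 ± 0.14 SE; edgeR adjusted p = 1.59e-05). The CD4 sp level was even among dogs. Of 16 genes on the list, 15 were tested, with 2 higher in CD8A sp cells, 11 higher in CD4 sp cells and 2 not called, and the median was -0.78.

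CD28, the main costimulatory receptor, was lower in CD8A sp cells (log2 -1.43), as were ICOS (-1.19), TNFRSF4 (OX40, -2.92), TNFRSF18 (GITR, -2.43), LTB (lymphotoxin beta, -0.78), CD5 (-0.68) and CD6 (-0.53). The 2 members that rose were CD7, at 131 to 185 against 346 to 496 CPM (log2 1.40), and CD2 (log2 0.34), adhesion and signalling receptors that cytotoxic and NK cells also carry. CD27 was at 183 to 192 CPM in CD4 sp and 132 to 181 CPM in CD8A sp sums, without overlap but not called (log2 -0.18, edgeR adjusted p = 0.14).

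**Figure D2:**
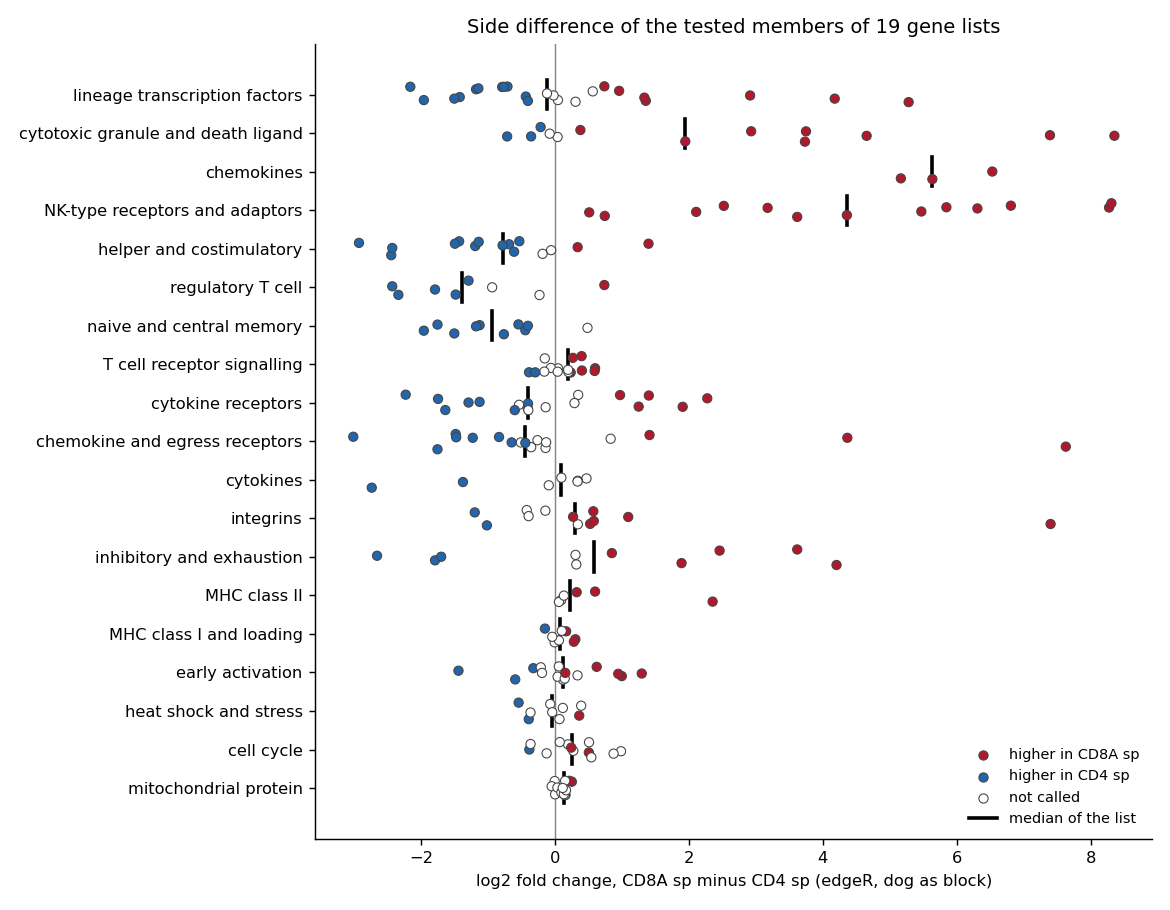
Log2 fold change (CD8A sp minus CD4 sp, horizontal axis) of each tested member of 19 gene lists, coloured by call, with a bar at the list median. The NK-type list lies wholly to the right with a median of 4.36, and the naive list lies mostly to the left, with a median of -0.94.

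Genes of regulatory T cells were higher in CD4 sp cells for 5 of 8 tested of 10 listed, with 1 higher in CD8A sp cells and 2 not called (median -1.38). FOXP3, the defining factor, was at 9.34, 19.9, 25.9 and 15.9 CPM in CD4 sp and 0.354, 4.25, 6.48 and 2.48 CPM in CD8A sp cells of dogs 1 to 4 (log2 -2.34). It was detected in 4.84% of CD4 sp, 1.11% of CD8A sp and 4.65% of dn cells. CTLA4, an inhibitory receptor (log2 -1.79), and IL2RA (CD25, -1.29) were lower in CD8A sp cells too. IKZF2 (Helios) was the member that was higher in CD8A sp cells (log2 0.74, edgeR adjusted p = 0.0311), with overlapping groups of 18.1 to 28.6 and 25.5 to 51.6 CPM. Its call was lost without dog 1 (0.0855), dog 2 (0.0514) or dog 4 (0.126).

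Of 12 naive and central memory genes, 10 were tested; 9 were higher in CD4 sp cells, 0 higher in CD8A sp cells and 1 was not called (median -0.94). CCR7, the lymph node homing receptor, was at 210, 187, 225 and 104 CPM in CD4 sp and 64.4, 69.1, 72.2 and 20.9 CPM in CD8A sp cells of dogs 1 to 4 (log2 -1.75). IL7R, the survival receptor for interleukin-7, was lower in CD8A sp cells (log2 -1.12), as was S1PR1, the egress receptor (-0.44).

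Receptors for cytokines went in both directions: of 24 listed, 18 were tested, with 5 higher in CD8A sp cells, 8 higher in CD4 sp cells and 5 not called. IL2RB, the signalling chain for interleukins 2 and 15, was at 76.7, 180, 173 and 238 CPM in CD4 sp and 615, 771, 830 and 856 CPM in CD8A sp cells of dogs 1 to 4 (log2 2.28 ± 0.16 SE). IL12RB2 (log2 1.91), IL12RB1 (0.97) and IL18RAP (1.25), which serve the type 1 cytokines interleukins 12 and 18, rose too. IL18R1, another receptor gene for interleukin 18, was not called (log2 0.35, edgeR adjusted p = 0.337). IL12RB2 lost its call without dog 3 (edgeR adjusted p = 0.0501). On the CD4 sp side stood IL21R, IL4R and IL6R, whose ligands guide helper cells, with log2 values of -2.23, -1.64 and -1.74, and the shared chain IL2RG (-0.41).

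Of 19 chemokine and egress receptors, 17 were tested, 3 higher in CD8A sp cells, 8 higher in CD4 sp cells and 6 not called. Beside S1PR5, CX3CR1, the fractalkine receptor of circulating effector cells, was at 0.421 to 2.80 against 15.9 to 52.1 CPM (log2 4.37). CXCR6 rose by a log2 of 1.41, a call that was lost without dog 2 (edgeR adjusted p = 0.0979) or dog 3 (0.0749). CXCR5, the follicle homing receptor, was at 1.22 to 4.57 CPM in CD4 sp and 0 to 0.497 CPM in CD8A sp sums, and CCR4 (log2 -1.48) and CXCR3, often tied to type 1 cells (-0.83), were lower in CD8A sp cells.

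Of 18 listed cytokine genes, 16 had a symbol and 7 passed the filter. Of the 7, 1 was higher in CD8A sp cells, 2 higher in CD4 sp cells and 4 not called. Most cytokine transcripts were scarce in these unstimulated cells, but IL16, which was not called, averaged 161 CPM in CD4 sp and 174 CPM in CD8A sp sums. IL2 was at 14.8, 19.7, 38.7 and 24.7 CPM in CD4 sp and 6.72, 10.6, 11 and 9.57 CPM in CD8A sp cells of dogs 1 to 4 (log2 -1.37), IL10 was lower in CD8A sp cells from a level under 3 CPM (log2 -2.73), and TGFB1 rose by a log2 of 0.34. IFNG (interferon gamma) was at 3.37, 8.82, 6.71 and 19 CPM against 23.3, 8.82, 6.82 and 17.3 CPM and was not called (log2 0.47, edgeR adjusted p = 0.435). The difference in IFNG was large in dog 1 alone, where the CD4 sp level was the lowest and the CD8A sp level the highest of the 4 dogs.

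The measured CD3 chains of the receptor complex differed little, and CD3D, CD3E and CD3G were not called. Of 17 genes for TCR signalling, 15 were tested, 6 higher in CD8A sp cells, 2 higher in CD4 sp cells and 7 not called, with a median of 0.20. Over all tested genes, 27.1% were called. CD3E was at 1197 to 1372 CPM in CD4 sp and 1175 to 1351 CPM in CD8A sp sums (log2 -0.06, edgeR adjusted p = 0.27). The kinases ZAP70 (log2 0.60), FYN (0.40) and LCK (0.27), which binds both coreceptors, and the phosphatase PTPRC (CD45, 0.24) were higher in CD8A sp cells, while PLCG1 was lower (-0.29). PLCG1 lost its call without dog 2 (edgeR adjusted p = 0.0586).

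The list of inhibitory receptors and exhaustion genes, which includes the factors TOX and TOX2, had 5 of 10 tested genes higher in CD8A sp cells, 3 higher in CD4 sp cells and 2 not called. HAVCR2 (TIM-3) was at 1.76 to 2.80 CPM in CD4 sp and 25.1, 14.1, 4.78 and 10.2 CPM in CD8A sp cells of dogs 1 to 4 (log2 2.46). TIGIT (log2 1.89) and PDCD1 (PD-1, 0.85) rose. TOX2 was at 13 to 23.1 CPM in CD4 sp and 1.25 to 4.41 CPM in CD8A sp sums (log2 -2.65). Of 12 tested integrin chains, 6 were higher in CD8A sp cells, led by ITGAM and then ITGAL (the LFA-1 alpha chain, log2 1.10) and its partner ITGB2 (0.57), while ITGA2 (-1.20) and ITGA5 (-1.01) were lower and 4 chains were not called.

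MHC class II genes are active in T cells of dogs, and most differences between the sides were small in size. Of 12 listed, 6 were tested, with 3 higher in CD8A sp cells and 3 not called. DLA-DRA was at 1208 to 1942 CPM in CD4 sp and 1547 to 1759 CPM in CD8A sp sums and was not called (log2 0.09). DLA-DOA, a chain of the peptide loading regulator DO, was at 6.53, 4.89, 6 and 1.84 CPM against 28.3, 24.8, 29.1 and 14.4 CPM (log2 2.36), DLA-DMB rose by 0.60 and DLA-DQA1 by 0.33. The call of DLA-DQA1 was lost without dog 1, 2 or 3 (edgeR adjusted p = 0.0814, 0.148 and 0.0926) and that of DLA-DMB without dog 2 (0.0517). Of 8 tested genes for class I, 3 were higher in CD8A sp cells, 1 higher in CD4 sp cells and 4 not called; DLA-64 rose by 0.31 and B2M by 0.17, the latter not without dog 3 (0.118).

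Among early activation genes, 5 of 15 tested were higher in CD8A sp cells, 3 higher in CD4 sp cells and 7 not called (median 0.12). DUSP2, a phosphatase that limits MAP kinase signals, was at 120, 90.6, 148 and 84.9 CPM in CD4 sp and 208, 192, 491 and 252 CPM in CD8A sp cells of dogs 1 to 4 (log2 1.3). NR4A1 (Nur77), induced by TCR signals, rose by a log2 of 1.0 and ZFP36 (tristetraprolin), which destabilises cytokine mRNA, by 0.95. The 3 genes higher in CD4 sp cells were NR4A3 (log2 -1.44, means of 3.95 against 1.38 CPM), DUSP1 (-0.59) and JUNB (-0.32). Heat shock and stress genes (9 tested) gave 1, 2 and 6 in the same order, and cell cycle genes (12 tested) 2, 1 and 9. These counts stand beside 27.1% called over all tested genes. MKI67 (Ki-67) rose by a log2 of 0.51, with a UMI in 2.6% of cells on either side, but its direction reversed in cells of 3000 to 6000 UMIs (log2 -0.86, not called).

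Markers of other cell types were checked beside these results. PAX5 and CD22 of B cells and CSF1R, CSF3R and S100A12 of myeloid cells were at 0 in every sum, and MS4A1 and BLNK of B cells were at 0.516 to 5.76 CPM in CD4 sp and 0.124 to 2.48 CPM in CD8A sp sums. Both were called as higher in CD4 sp cells, MS4A1 not without dog 1, 3 or 4 (edgeR adjusted p = 0.0664, 0.178 and 0.0608). BANK1, another B cell gene, lay below the filter and went the other way, with means of 0.2 CPM in CD4 sp and 2.22 CPM in CD8A sp sums. CD79A, a B cell receptor chain by name, stood at 9212 to 10530 CPM on the CD4 sp side and 9180 to 10480 CPM on the CD8A sp side, in 98.9% and 99.5% of cells, and was not called. Whether this row counts reads of a neighbouring gene was not tested. S100A8, a calgranulin of myeloid cells, was at 1212 to 2918 and 884 to 1881 CPM (log2 -0.46) and was found in 77.1% of cells on the CD4 sp side and 72.3% on the CD8A sp side. Of 8 platelet and erythrocyte genes 1 was tested and not called, and of 7 gamma-delta T cell genes only 2 had a symbol in the gene list and 0 passed the filter, so these cells were hardly assessed by RNA. Of 13 mitochondrial genes, MT-CO1 and MT-CO2 were higher in CD8A sp cells by a log2 of 0.25 and 0.22, and the other 11 were not called. The call was lost without dog 2 for MT-CO1 (edgeR adjusted p = 0.0638) and without dog 2 (0.0813) or dog 3 (0.066) for MT-CO2. The part of RNA quality in other differences was not tested.

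The threshold of 1 UMI was looked at by splitting each side. CD40LG averaged 85.3 CPM ± 3.45 (SD, n = 4) in cells with 2 or more CD4 UMIs, 83.5 ± 8.71 with 1 CD4 UMI and 85.4 ± 7.59 in dn cells, against 37.6 ± 10.4 with 1 CD8A UMI and 13.2 ± 3.74 with 2 or more. ZBTB7B averaged 19.4, 18.4, 19.2, 11.8 and 6.64 CPM in the same order. GZMA averaged 0.691, 0.72, 3.92, 90.5 and 243 CPM. Cells with 1 CD8A UMI numbered 95, 222, 253 and 185 in dogs 1 to 4 and lay between the other CD8A sp cells and the CD4 sp cells in the mean of each of these 3 genes, whereas dn cells lay close to the CD4 sp cells for CD40LG and ZBTB7B but above them for GZMA in 4 of 4 dogs. Cells with 1 CD8A UMI were shallower, with medians of 2351 to 3443 UMIs against 3663 to 4028 with 2 or more. The part of this depth in their middle position was not tested.

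**Figure D3:**
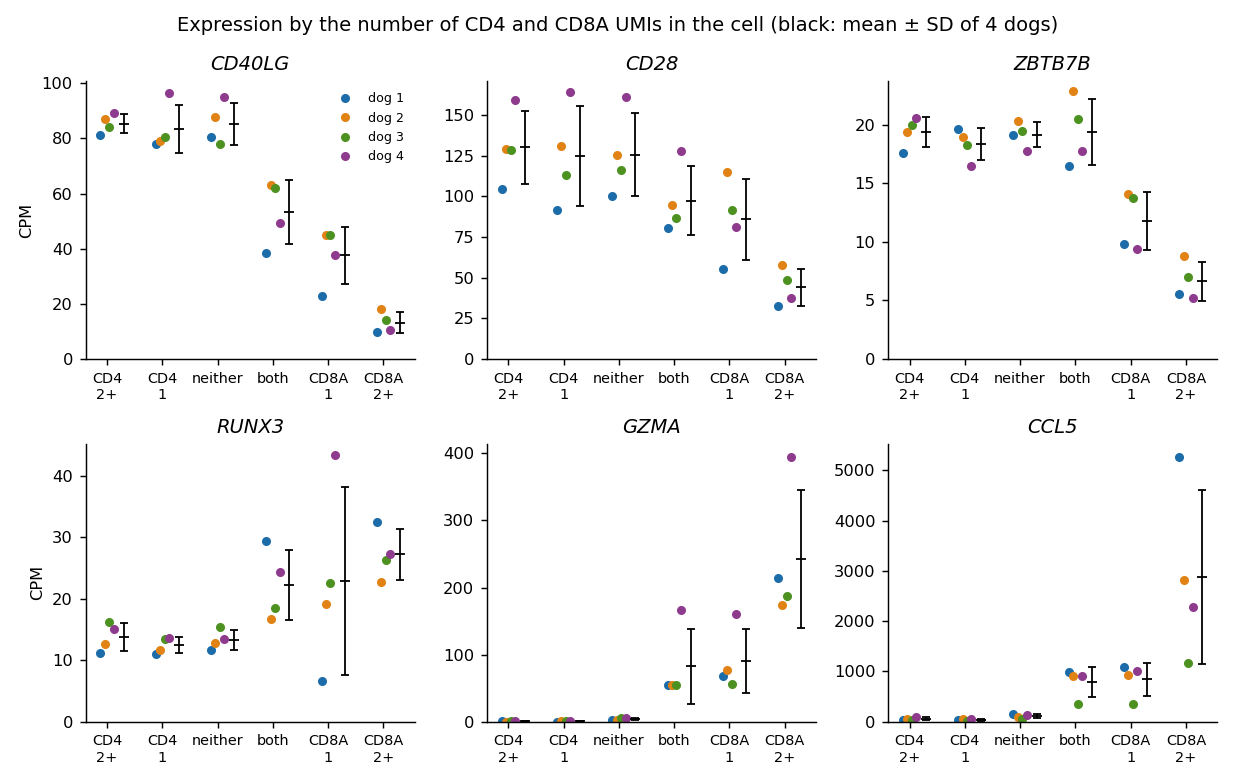
CPM of 6 genes in cells split by their CD4 and CD8A UMIs (2 or more or exactly 1 of either, neither, both), with 1 point per dog and the mean ± SD of 4 dogs in black. For CD40LG, CD28 and ZBTB7B the cells with neither UMI sit with the CD4 groups, and cells with 1 CD8A UMI sit between the CD4 groups and the cells with 2 or more.

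Double-positive cells had higher median depth, 5418 to 5955 UMIs, and more than 1 productive TRB in 21.6% ± 4.13 (SD, n = 4) of those with a TRB, against 3.8% ± 0.85 in CD4 sp and 4.18% ± 2.06 in CD8A sp cells. Their CD40LG (53.3 CPM) and GZMA (82.6 CPM) lay between the sides, while ZBTB7B (19.4 CPM) was at the CD4 sp level. Leaving out sp cells with more than 1 TRB gave 2687 calls in place of 2741.

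Since CD8A sp cells were more often clonal, the contrast was repeated with 1 cell per TRB clonotype, dog and side, which left 331 to 668 CD8A sp and 1557 to 2678 CD4 sp cells per dog. It called 1942 genes of 9330 tested, 952 higher in CD8A sp and 990 higher in CD4 sp cells, and 1743 of them were among the 2741. IFNG was then called as higher in CD8A sp cells (log2 0.88, edgeR adjusted p = 0.0172), and IKZF2 was not (log2 0.37, adjusted p = 0.115). PLCG1 also lost its call (log2 -0.22, edgeR adjusted p = 0.073).

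As a rough split by stage, cells were divided by whether they held a CCR7 UMI. Such a UMI was found in 40% ± 9.51 (SD, n = 4) of cells on the CD4 sp side and 13% ± 5.77 on the CD8A sp side. CCR7 itself was left out of the tests. Cells without a CCR7 UMI can still express CCR7, so this stratum can mix stages, in shares that may differ between the sides. The part of such a mix in the differences between strata was not tested. The CD8A sp cells with a CCR7 UMI numbered only 114, 234, 334 and 90 in dogs 1 to 4, and their median depth of 4181 to 5062 UMIs exceeded the 3841 to 4330 UMIs of the CD4 sp cells with one. Of 9989 genes tested, 499 (5%) differed between the sides in cells with a CCR7 UMI and 2926 (29.3%) in cells without, by edgeR as above, and the former fit rested on fewer cells. The count with a CCR7 UMI was 204 without dog 2 and 219 without dog 3. With a CCR7 UMI, 2.67% of genes were higher and 2.32% lower in CD8A sp cells, and without one 14.2% and 15.1%. Both fits called 435 genes, 432 of them in 1 direction, which was 87.2% of the first list and 14.9% of the second.

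Several genes differed in both strata. ZBTB7B had log2 values of -1.55 with and -1.45 without a CCR7 UMI, SAMHD1 of -2.37 and -2.43, and SELENOP of -2.93 and -3.67. GZMA was at 31 CPM in CD8A sp cells with a CCR7 UMI, 0.376 CPM in CD4 sp cells with one, 259 CPM in CD8A sp cells without and 0.92 CPM in CD4 sp cells without. EOMES rose by a log2 of 3.96 and 3.88. RUNX3 was called without a CCR7 UMI (log2 0.95, edgeR adjusted p = 1.29e-06) but not with one (0.47, 0.227), and the difference itself was not called (-0.47, 0.351).

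The difference between the strata was itself tested, and 246 genes (2.46%) passed, 1.59% of genes with a positive and 0.871% with a negative difference. In 223 of these the side effect was smaller in cells with a CCR7 UMI. In 104 the estimates had opposite signs in the 2 strata, whether or not either was called. Of the 435 genes called in both strata, 432 had the same direction. The count was 79 without dog 3, 93 without dog 2 and 20 in a fit without the dog block. CTLA4 gave the smallest p. It was at 103, 106, 123 and 153 CPM in CD4 sp and 68.3, 101, 106 and 115 CPM in CD8A sp cells with a CCR7 UMI, and at 116, 145, 132 and 165 against 20.9, 38.9, 32.5 and 23.2 CPM without one. The CD8A sp cells without a CCR7 UMI were thus the low group, with a log2 side effect of -0.25 with and -2.29 without a CCR7 UMI (difference 2.04 ± 0.20 SE; edgeR adjusted p = 2.55e-05).

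HMGN1, a nucleosome binding protein, MAP3K1, a stress kinase, and ATP6V0E1, a proton pump subunit, behaved likewise, with side effects of -0.08, -0.17 and -0.01 with a CCR7 UMI and -1.01, -0.94 and -0.58 without. BCL2A1, a survival protein of the BCL2 family, and ABI3, an actin regulator, rose less with a CCR7 UMI (log2 0.46 and 0.57) than without (1.52 and 1.73). In both, the CD8A sp effect with a CCR7 UMI was no longer called with 1 cell per clonotype. Nor was it called without dog 3 for BCL2A1 (edgeR adjusted p = 0.0615) or without dog 2 for ABI3 (0.0951).

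Among genes described above, the side difference of LEF1 (difference 1.40), CD28 (1.28), FOXP3 (2.33) and IL7R (0.89) was also smaller with a CCR7 UMI, and LEF1, at 551 against 434 CPM, was not called there (log2 -0.31, edgeR adjusted p = 0.192). Without the filter on low counts, the effect with a CCR7 UMI was called for LEF1 (log2 -0.32, edgeR adjusted p = 0.0262), CD28 (-0.43, 0.0261) and IL7R (-0.39, 0.00202). That of IL7R was also called with 1 cell per clonotype (-0.38, 0.00778). GZMB and KLRB1 rose less with a CCR7 UMI (differences -1.73 and -2.0). The call for GZMB was lost without dog 3 (edgeR adjusted p = 0.254) or dog 4 (0.079) and in cells of 3000 to 6000 UMIs (0.054), that for KLRB1 without dog 2 (0.187) or dog 3 (0.218), and that for FOXP3 without dog 3 (0.0544) and with 1 cell per clonotype (0.0613).

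**Figure D4:**
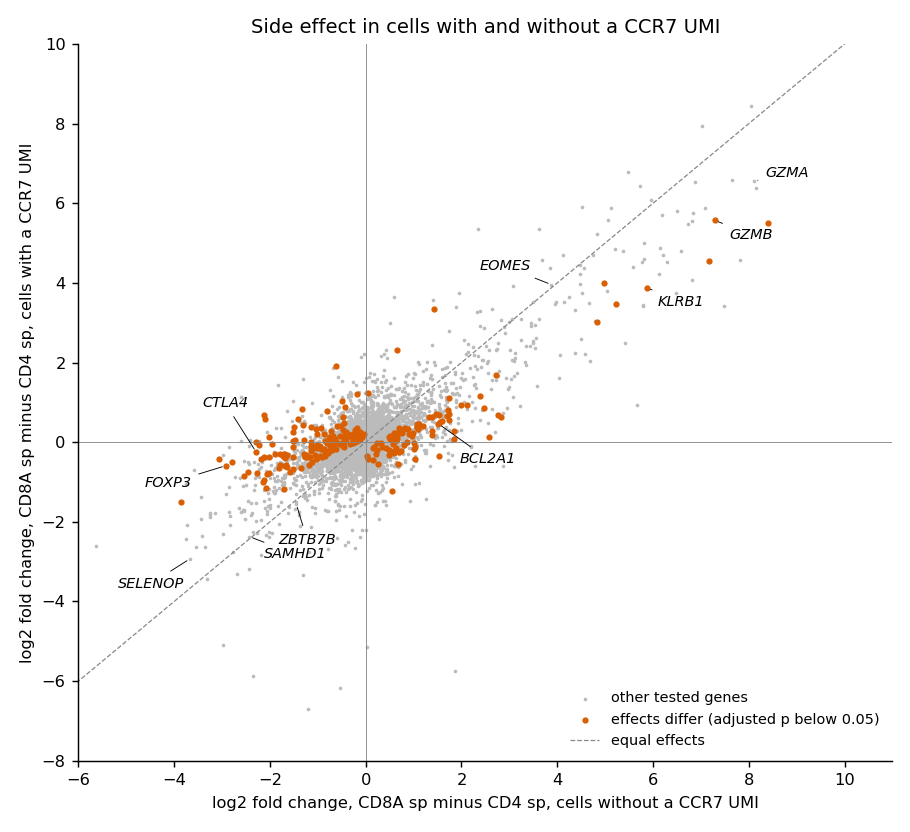
Log2 fold change (CD8A sp minus CD4 sp) of each tested gene in cells without (horizontal) and with (vertical) a CCR7 UMI, with the 246 genes whose effects differed in orange and a dashed line where effects are equal. ZBTB7B, SAMHD1 and EOMES lie near the line, and the orange genes lie mostly closer to 0 on the vertical axis.

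The receptors differed between the sides in expansion. In CD4 sp cells with 1 TRB, 4.85%, 29.8%, 23.3% and 48.6% belonged to a clonotype of 2 or more cells in dogs 1 to 4, and in CD8A sp cells 53.8%, 56%, 73.4% and 80%. The groups did not overlap, and the mean difference was 39.2 percentage points ± 12.2 (SD of 4 pairs), higher in CD8A sp cells in 4 of 4 dogs (exact sign-flip permutation test, two-sided, p = 0.13, the smallest possible; Benjamini-Hochberg adjusted 0.219 over 7 such comparisons). With equal numbers of cells drawn per side in each dog, the shares were 0.737% to 41.2% and 51.9% to 78.3%.

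Junctions were longer on the CD8A sp side. Counting each clonotype once, the mean TRB junction had 14.37, 14.30, 14.44 and 14.38 amino acids in CD4 sp and 14.78, 14.59, 14.84 and 14.97 in CD8A sp cells of dogs 1 to 4, a difference of 0.42 ± 0.13 (SD of 4 pairs; exact sign-flip p = 0.13). The mean TRA junction had 13.50, 13.46, 13.56 and 13.55 against 13.92, 14.14, 14.03 and 13.90 amino acids (difference 0.48 ± 0.14; exact sign-flip p = 0.13). Neither pair of groups overlapped. Cells carrying TRAV9-11 joined to TRAJ28 made up 30.4%, 17%, 14.7% and 7.82% of CD8A sp cells with 1 TRA. In CD4 sp cells the share was at most 0.183%. Without these cells the TRA difference was 0.15 ± 0.09 and the TRB difference 0.54 ± 0.07. This exclusion was added after the data were seen. In the study most such TRA junctions were longer than the median, so leaving them out by itself lowers the CD8A sp TRA mean.

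A second productive TRA was found in 6.88%, 7.82%, 7.72% and 5.97% of CD4 sp cells and 5.76%, 5.72%, 6.13% and 12.8% of CD8A sp cells that had a TRA and 1 TRB (exact sign-flip p = 1). Dog 4 alone was higher on the CD8A sp side. In its largest CD8A sp clonotype, shown above, 99 of 128 cells with a TRA had 2 or more. With 1 cell per clonotype, a setting added after the data were seen, the share in CD8A sp cells of dog 4 was 6.90%. A TRA or TRB rearrangement was found in 84.1% to 87.8% of CD4 sp and 85.8% to 89.4% of CD8A sp cells.

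**Figure D5:**
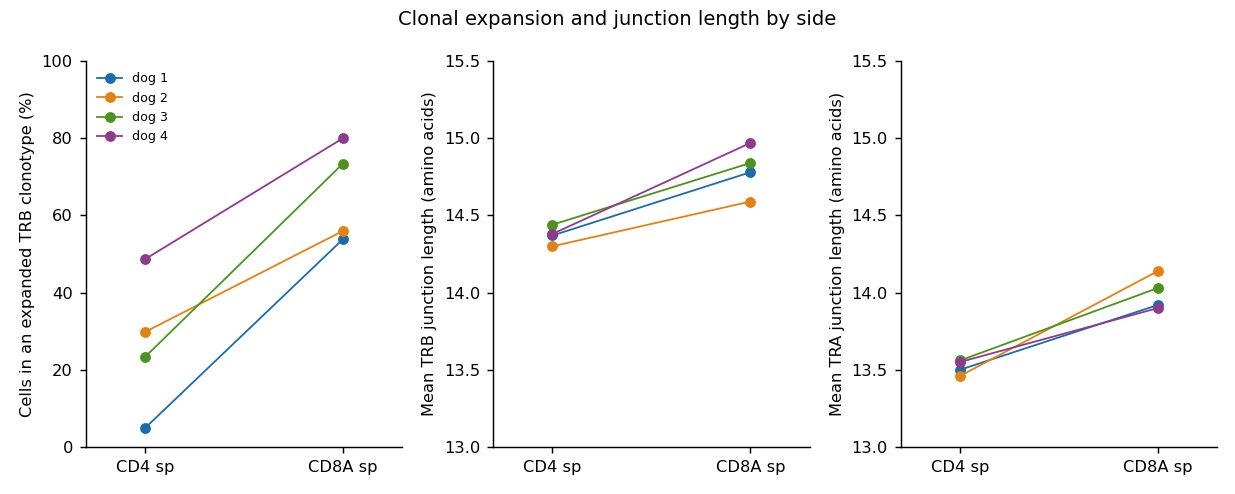
Share of cells in a TRB clonotype of 2 or more cells (left, axis from 0) and mean length of the TRB (middle) and TRA (right) junction in amino acids (axes that do not start at 0), with 1 line per dog. All 12 lines rise from CD4 sp to CD8A sp.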

How the data were processed

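Transcriptome and V(D)J libraries of 4 dogs were used. Per the labels and the file headers, the deposited matrices hold whole-number counts of UMIs for every gene in every cell, made by the authors with Cell Ranger 5.0.1 on CanFam 3.1, restricted to barcodes called as cells and not normalized. They deposited productive rearrangements with V gene, J gene, junction and UMI counts per rearrangement. Authors' statistics were not used.

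Cells were filtered by the study's limits (1216 left out). Doublets were treated by leaving out cells with more than 1 TRB as an alternative. UMIs were summed per dog and side (8 sums; 16 with the CCR7 split). edgeR 4.0.16 in R 4.3.3 used TMM factors, its expression filter, the dog as a block and a Benjamini-Hochberg adjusted p below 0.05. The block came from the design, since both sums share a library; same-dog deviations correlated at 0.475 to 0.567 over genes. Per-dog values were compared by exact two-sided sign-flip permutation. CPM are counts per 1000000 UMIs of the sum. Intervals cover counting error only. DESeq2 1.42.0, RLE factors, no filter, no block, other cell sets and leaving out each dog were alternatives. The edgeR steps were run on simulated counts with the same spread for every gene. That setting is simpler than these data, so it checks the code and not the calls reported here. The members and gene lists were chosen with earlier results of these data known, so list counts and medians are descriptions. Named genes were the 12 largest and 12 smallest log2 fold changes under the rule in the text, 6 genes by smallest p for the CCR7 difference (with a symbol and at least 20 CPM), and list members. Mitochondrial list genes were matched by their MT symbols. Symbols missing from the deposited gene list were not analysed here. Some list members are not reported here.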

Additional observations from a re-analysis of the deposited data

Results flagged for a closer look

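Of 268 groups of 4 dogs examined, 11 had 1 dog far from the other 3 (Dixon's test), where chance gives about 1 in 20. In CD4 sp sums these were SELENOP in dog 4 (32.36 CPM), CCL3 in dog 2 (0.06439 CPM, 1 UMI), NCR1 in dog 3 (0.1765 CPM) and PTPRC in dog 3 (1559 CPM). In CD8A sp sums they were RAB27A (180.9 CPM), CCR7 (20.87 CPM) and DLA-DRA (1759 CPM) in dog 4, and TYMS (31.47 CPM) and S100A8 (884 CPM) in dog 1. Among receptor measures, dog 4 had 12.84% of CD8A sp cells with 2 or more TRA and dog 1 had a TRA or TRB in 89.44% of CD8A sp cells.

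The side effect differed between cells with and without a CCR7 UMI, by edgeR's test of that difference, in 246 genes. Among named genes the log2 difference was 2.038 for CTLA4, 0.9376 for HMGN1, -1.054 for BCL2A1, 0.7673 for MAP3K1, -1.165 for ABI3, 0.5701 for ATP6V0E1, -1.727 for GZMB, 1.4 for LEF1, 1.277 for CD28, 2.332 for FOXP3, 0.8919 for IL7R and -2.001 for KLRB1.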

How the results depend on the processing

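Without the dog block, calls numbered 1427 for all genes, 182 with a CCR7 UMI, 1479 without one and 20 for the difference between these strata, and 32 named gene results lost their call. With 1 cell per clonotype, cells without a CCR7 UMI gave 1832 calls, and without the filter on low counts the difference gave 375. Leaving out 1 dog gave 1872 to 2493 calls for all genes, 204 to 460 with a CCR7 UMI (204 without dog 2, 219 without dog 3), 2262 to 2575 without one and 79 to 223 for the difference. DESeq2 called 2060 genes.

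The difference in cells with 2 or more TRA was -0.2319 percentage points with positivity from 2 UMIs and -0.2868 with 1 cell per clonotype, and ranged from -1.602 (without dog 4) to 1.385 with 1 dog left out. That in cells with a TRA or TRB ranged from -0.02127 (without dog 1) to 2.171. Named genes whose direction reversed were TOX with 1 cell per clonotype (-0.02202), MKI67 in cells of 3000 to 6000 UMIs (-0.8618), and IFNG, which ranged from -0.06137 (without dog 1) to 0.8132. CD79A gave 0.05884 with 1 cell per clonotype, 0.02979 in cells of 3000 to 6000 UMIs, 0.01418 from 2 UMIs, 0.0055 without cells with more than 1 TRB, and -0.03936 to 0.02197 with 1 dog left out. With a CCR7 UMI, HMGN1 gave 0.08213 with 1 cell per clonotype, and ATP6V0E1 gave 0.1014 with 1 cell per clonotype, 0.007727 with RLE factors, 0.05041 in cells of 3000 to 6000 UMIs and -0.03113 to 0.02073 with 1 dog left out. The cause of these changes was not tested. The CD8A sp sums with a CCR7 UMI, of 90 to 334 cells, were the smallest. The part of cell number in the lower count of calls there was not tested. With 1 cell per clonotype, the call of TYMS was lost (edgeR adjusted p = 0.234).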
